A study of Homo sapiens with 22 samples.

Results

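Matrix metalloproteinases (MMPs), the urokinase plasminogen activator with its receptor, and the tissue inhibitors of metalloproteinases (TIMPs) were followed in Caco-2 cells, an established human colorectal adenocarcinoma line. The set is defined by gene names and no measured value enters that rule, although it was drawn up with earlier results of these data known. It holds 10 of the 61487 genes counted, namely MMP1, MMP7, MMP10, MMP13, MMP14, MMP15, PLAU, PLAUR, TIMP1 and TIMP2.

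The cells were cultured for 48 h in medium of which 10% was replaced by PBS (the vehicle, 4 samples), by faecal water of control mice (FWctl, 7 samples), by faecal water of antibiotic-treated mice (FWatb, 7 samples), or by the antibiotic cocktail itself (ATB, 4 samples). The cocktail held neomycin at 1 g/L, vancomycin at 0.5 g/L and meropenem at 0.25 g/L. Faecal water is the soluble part of stool, and according to the methods the same mice gave it before and during antibiotic treatment. All groups share the single cell line and the same 10% replacement, so none of them is untouched medium. The methods exclude 1 FWctl sample as an outlier without naming it. FWctl replicate 1 was set apart here and is described separately, which leaves 21 samples in the comparisons.

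MMPs are zinc-dependent proteases that cut collagens, laminins and other matrix proteins, cell-surface proteins and one another, and most are made as inactive proenzymes. Urokinase (PLAU), bound to its receptor (PLAUR), turns plasminogen into plasmin, a protease that cuts fibrin and matrix and can activate several proMMPs. TIMPs bind active MMPs and block them. In the gut wall these systems act in epithelial migration, wound closure and tumour invasion.

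Raw counts per library totalled 7118302 to 18726967. In 8 libraries (PBS replicates 3 and 4, FWctl 1, 2 and 3, and ATB 1, 3 and 4) transcripts of the ribosomal DNA repeats took 0.0163 to 0.0805% of counts, against 1.87 to 8.19% in the other 14, which include all 7 FWatb libraries. The labels name no batch. Intestinal epithelial markers were abundant in every library. The summed level of 12 of them was 40509 to 45955 normalized counts in PBS, 46410 to 55035 in FWctl, 40665 to 52620 in FWatb and 42212 to 44410 in ATB, so every FWctl sample lay above every PBS sample. CDH17 and KRT8 made up much of that difference, while KRT18, KRT20 and LGALS4 were lower in FWctl. The summed level of 9 fibroblast markers was 433 to 453 in PBS, 225 to 348 in FWctl, 329 to 416 in FWatb and 444 to 497 in ATB, and COL1A1, PDGFRA and PDGFRB made up much of the difference. That of 9 immune markers was 72.1 to 109 in PBS, 107 to 143 in FWctl, 77.8 to 108 in FWatb and 92.1 to 118 in ATB. That of 5 endothelial markers was 69.6 to 79.8 in PBS, 47.0 to 87.8 in FWctl and 65.8 to 108 in FWatb, and at 88.6 to 133 in ATB it lay above all PBS samples. Within these lists the levels were uneven. No library held more than 2 reads of COL1A2, DCN or PTPRC or 3 of CDH5, whereas in PBS the means were 153 normalized counts for PDGFRB, 151 for LUM, 87.5 for COL1A1, 62.6 for PECAM1, 52.8 for CD14 and 28.7 for CSF1R. The part of the markers that did differ in the results below was not tested.

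The 4 genes MMP1, MMP7, MMP10 and MMP13 lie within 435225 bases of each other on chromosome 11, all on the minus strand (GRCh38, GENCODE release 44). In order they are MMP7 (chr11:102520508-102530750), MMP10 (chr11:102770502-102780628), MMP1 (chr11:102789401-102798160) and MMP13 (chr11:102942995-102955732), with 8772 bases between MMP10 and MMP1. RefSeq windows ahead of the start site (GRCh38.p14) were matched for 7 of the 10 genes, without MMP1, MMP13 and TIMP2. Those of MMP7 (chr11:102530748-102530997, minus strand) and MMP10 (chr11:102780629-102780878, minus strand) are printed because both genes sit in this cluster and carry the same arrangement of 2 motifs. Both genes had low counts in these data, and a link between the windows and the counts was not tested. Capitals mark AP-1 (TGANTCA, the site of FOS and JUN dimers), ETS/PEA3 (AGGAAG) and TATA box (TATAAA) letters on either strand, and none of these matches overlap.
MMP7: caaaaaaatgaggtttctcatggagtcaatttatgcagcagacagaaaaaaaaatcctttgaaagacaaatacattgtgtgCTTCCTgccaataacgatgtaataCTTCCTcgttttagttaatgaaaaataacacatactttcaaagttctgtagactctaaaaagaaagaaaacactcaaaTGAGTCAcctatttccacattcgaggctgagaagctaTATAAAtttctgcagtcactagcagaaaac
MMP10: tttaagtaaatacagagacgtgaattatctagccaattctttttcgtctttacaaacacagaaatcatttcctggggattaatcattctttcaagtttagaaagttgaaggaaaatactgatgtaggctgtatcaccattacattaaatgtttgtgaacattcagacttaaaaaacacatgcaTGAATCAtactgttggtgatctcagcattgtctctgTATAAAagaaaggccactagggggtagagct

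The AP-1 letters stand 67 to 61 bases before the start in both windows, and the TATA letters 30 to 25 bases before it in MMP7 and 31 to 26 in MMP10. Among the 7 matched genes the AP-1 motif was present in 3 (MMP7, MMP10 and PLAUR), the TATA motif in 2 (MMP7 and MMP10), the ETS/PEA3 motif in 4 (MMP7, PLAU, PLAUR and TIMP1) and the NF-kB motif in 0. Of 35116 windows of 250 bases ahead of human start sites, 6.57% held the AP-1 motif, 10.7% the TATA motif, 28.7% the ETS/PEA3 motif and 9.96% the NF-kB motif. A match is a description of letters and not evidence of binding.

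Levels are given as normalized counts, that is counts scaled to a common library size of 12576200, and differences as log2 fold changes from the quasi-likelihood test of edgeR, adjusted after Benjamini and Hochberg over the 20373 genes that had a count above 5 in at least 3 samples. A gene passed when its adjusted p was below 0.05, and for FWatb against FWctl the absolute log2 fold change also had to exceed 1. All 10 genes met the filter, so none was formally too low to test. MMP7 met it only through 4 FWctl samples, and its difference from the other groups was therefore partly set by the filter. MMP13, MMP10 and TIMP1 averaged 6.82, 5.86 and 7.20 normalized counts, with no raw count above 14 in any of the 21 libraries. Under a stricter filter of at least 10 counts in at least 4 samples, MMP7 and MMP10 were dropped.

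Per kb of exon, MMP1, the interstitial collagenase, had the highest level of the set in all 4 conditions. Its mean was 751 ± 57.7 normalized counts per kb in PBS (SD, n = 4). MMP14, the membrane-anchored collagenase that activates proMMP2, followed at 159 ± 15.3. TIMP2, which also serves as the bridge between MMP14 and proMMP2, was at 57.0 ± 3.40, and MMP15, a related membrane-type MMP, at 54.0 ± 3.29. The ranges of TIMP2 and MMP15 overlapped in PBS, FWctl and FWatb but not in ATB. PLAU stood at 19.7 ± 7.73 and PLAUR at 5.77 ± 1.27 in PBS, without overlap. From PLAUR downwards (TIMP1 at 5.01, MMP10 at 3.68, MMP13 at 3.09) neighbouring ranges overlapped, and MMP7 was lowest at 0.496. In FWctl the order of the lower genes differed, with the mean of PLAU at 3.79 below both PLAUR at 6.57 and TIMP1 at 6.18. The range of PLAU overlapped those of both genes, and the per-kb ratio of PLAU to PLAUR reached 1.21 in FWctl.

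**Figure D1:**
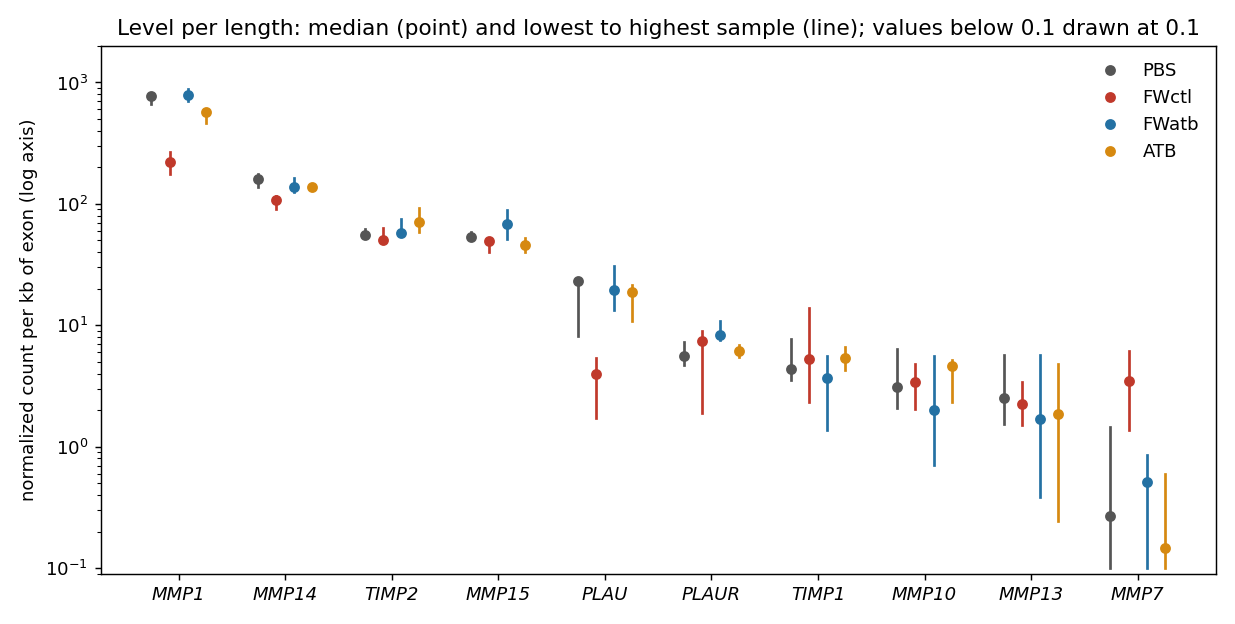
Normalized counts per kb of exon (log axis) of the 10 genes in PBS (n = 4), FWctl (n = 6, without replicate 1), FWatb (n = 7) and ATB (n = 4); points are medians, lines run from the lowest to the highest sample, and values below 0.1 are drawn at 0.1. MMP1 is highest in every condition, and the FWctl level of MMP1 and PLAU lies below the other conditions.

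MMP1 took a median of 77.6% of the summed per-kb level of the 6 MMPs in PBS, 57.9% in FWctl, 76.8% in FWatb and 75.2% in ATB. The FWctl range of 54.3 to 61.3% lay below those of the other groups, the lowest of which began at 69.9%. MMP14 took a median of 16.2%, 27.2%, 15.0% and 18.4% of that sum. The sum itself was 862 to 1020 normalized counts per kb in PBS, 318 to 440 in FWctl, 900 to 1100 in FWatb and 669 to 794 in ATB. TIMP1 and TIMP2 together gave 58.9 to 66.5 per kb in PBS and 52.2 to 66.1 in FWctl. The ratio of the 6 MMPs to these TIMPs thus had a median of 15.8 in PBS, 6.46 in FWctl, 15.8 in FWatb and 10.3 in ATB. TIMP3, the matrix-bound inhibitor and no member of the set, was far more abundant, with a median of 1072 normalized counts per kb in PBS and 822 in FWctl. With TIMP3 included the ratio had medians of 0.891, 0.407, 0.973 and 0.685 in the same order. In FWctl replicate 1, set apart, the ratio was 9.59 without TIMP3 and 0.600 with it, above the highest of the other FWctl samples (8.43 and 0.534). These ratios are of RNA levels and carry no test.

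The first comparison asked what FWctl did relative to its vehicle. MMP1 and PLAU had the largest falls of the set, MMP14 fell less, and MMP7, with few reads in PBS, had a higher mean. Neither TIMP passed the test. Of the 10 genes, 3 passed as lower (MMP1, PLAU and MMP14), where 22.1% of the 20373 genes did. MMP7 passed as higher, where 24.3% of all genes did, but it met the filter only through FWctl samples and its call is given as a description. In either direction 46.4% of all genes passed, so the set did not exceed the background. The median log2 fold change was -0.13 over the 10 genes and 0.02 over all genes.

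The 4 PBS samples of MMP1 read 1826, 2100, 2108 and 2187 normalized counts. The 6 FWctl samples ran from 486 through a median of 608 to 739. Every FWctl sample was thus below every PBS sample. The log2 fold change was -1.75 ± 0.09 (SE, adjusted p = 7.78e-20), or 3.35-fold lower. A lower count in these bulk libraries can come from fewer cells making the RNA or from less RNA per cell, and the data cannot separate them. The antisense pseudogene WTAPP1 shares 223 of the 2738 exonic bases of MMP1, and whether reads were counted by strand is not given. WTAPP1 had means of 39.7 in PBS and 45.4 in FWctl and did not pass the test (log2 fold change 0.20, adjusted p = 0.413).

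PLAU (chr10:73909177-73917496, plus strand) read 23.9, 69.8, 67.0 and 71.2 in PBS. In FWctl it ran from 5.12 through a median of 11.7 to 16.0. The groups did not overlap, even though PBS replicate 1 was well below its fellows. The log2 fold change was -2.30 ± 0.28 (adjusted p = 5.29e-09), or 4.92-fold lower. PLAU shares 915 exonic bases with the antisense gene C10orf55, which had 24 counts in all 22 libraries together.

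MMP14 (chr14:22836560-22849041, plus strand) read 640, 810, 743 and 750 in PBS and ran from 423 through a median of 495 to 541 in FWctl. The groups did not overlap here either. The log2 fold change was -0.60 ± 0.08 (adjusted p = 8.48e-08), or 1.51-fold lower. MMP15 (chr16:58025754-58046901, plus strand) did not pass, at -0.16 ± 0.11 (adjusted p = 0.250). It averaged 228 ± 13.9 in PBS and 202 ± 20.8 in FWctl.

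MMP7, or matrilysin, is the small secreted MMP of glandular epithelium. Its raw counts in PBS were 0, 1, 0 and 5. In FWctl they were 12, 20, 7, 3, 2 and 6, which corresponds to 3.19 to 14.3 normalized counts with a median of 8.08. The ranges overlapped, since PBS replicate 4 (3.36) was above FWctl replicate 7 (3.19). The log2 fold change was 2.66 ± 0.67 (adjusted p = 0.000686), with a 95% confidence interval of 1.41 to 4.13. Without PBS replicate 4, which holds 5 of the 6 PBS counts, it was 4.29. MMP10, or stromelysin-2, whose window above also matches the AP-1 and TATA patterns, stood at -0.07 with an interval of -1.03 to 0.88. MMP13, or collagenase-3, stood at -0.31 with an interval of -1.37 to 0.74. For MMP10 and MMP13 a change inside these intervals was not detectable at this depth.

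PLAUR (chr19:43646095-43670547, minus strand) read 20.9, 28.7, 21.1 and 32.2 in PBS. In FWctl it ran from 8.46 through a median of 32.8 to 39.9, which encloses the PBS range. Its log2 fold change was 0.19 ± 0.23 (adjusted p = 0.524), so the ligand PLAU and the receptor PLAUR did not move alike. Per kb, the ratio of PLAU to PLAUR was 1.73 to 4.79 in PBS and 0.242 to 1.21 in FWctl, without overlap. In FWctl replicate 1, set apart, this ratio was 3.34, inside the PBS range.

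TIMP2 (chr17:78852977-78925387, minus strand) read 340, 339, 352 and 384 in PBS and ran from 297 through a median of 312 to 396 in FWctl. The groups overlapped, and the log2 fold change was -0.10 with an interval of -0.31 to 0.11. TIMP2 shares 367 exonic bases with an antisense lncRNA that had 0 counts and 224 with CEP295NL on its own strand, which had 97 counts in all. TIMP1 (chrX:47582408-47586789, plus strand) read 5.97, 11.2, 5.10 and 6.72 in PBS and ran from 3.38 through a median of 7.67 to 19.9 in FWctl. At 0.33, with an interval of -0.49 to 1.17, it was too scarce for a moderate difference to be seen.

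**Figure D2:**
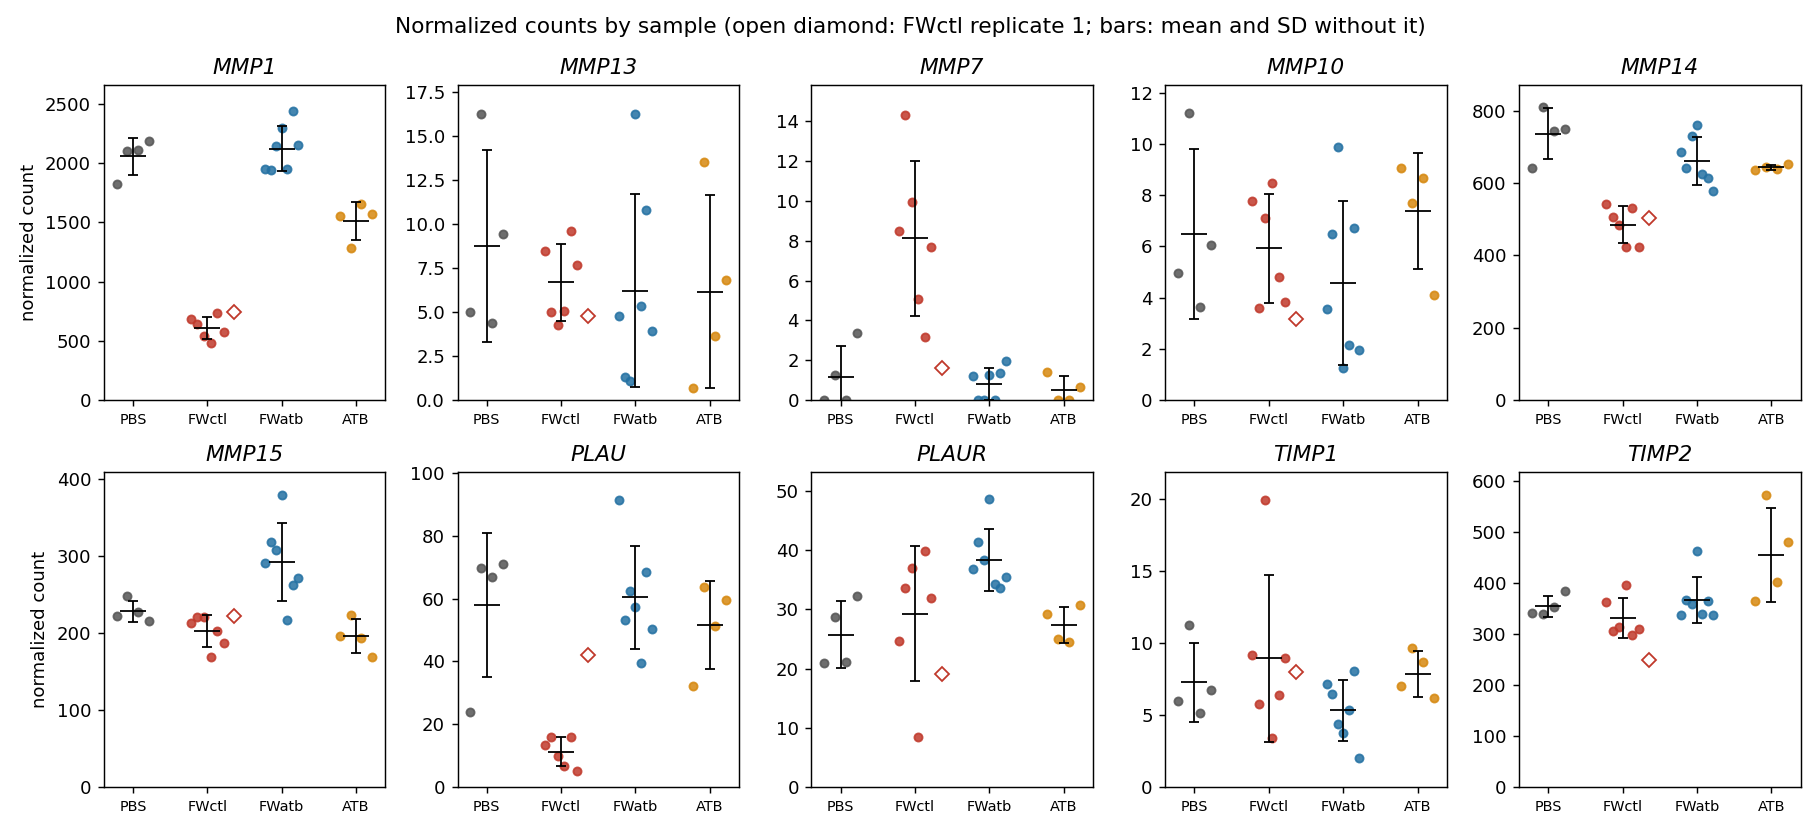
Normalized counts of the 10 genes in each sample by condition; points are samples, bars the mean and SD (PBS n = 4, FWctl n = 6, FWatb n = 7, ATB n = 4), and the open diamond is FWctl replicate 1, outside the bars. Without the diamond, the FWctl points of MMP1, MMP14 and PLAU lie below all PBS and FWatb points, and those of MMP7 above all FWatb points. MMP7 met the filter only through FWctl samples.

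FWctl replicate 1 behaved differently from gene to gene. With 740 normalized counts of MMP1 it stood with the FWctl samples, just above their highest, and below all samples of the other conditions. Its MMP14 count of 503 was within the FWctl range. Its 42.1 counts of PLAU, by contrast, were above all other FWctl samples and inside the PBS range. Its MMP7 count of 1.59 (2 reads) was below all other FWctl samples. Its TIMP2 count of 248 was below all samples of every condition, its PLAUR count of 19.1 was within the FWctl range, and its MMP15 count of 222 was marginally above the FWctl maximum of 221. MMP10 was at 3.18, MMP13 at 4.77 and TIMP1 at 7.95 in this sample. With it included (22 samples), the log2 fold changes of FWctl against PBS were -1.73 for MMP1, -1.80 for PLAU, -0.62 for MMP14 and 2.42 for MMP7, and the same 4 genes passed.

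The next comparison asked whether faecal water from antibiotic-treated mice acted on these genes. MMP1, PLAU, MMP14 and TIMP2 had estimates within 0.2 log2 units of PBS, and those of the other genes were 0.36 to 0.57 in size. Only MMP15 passed, with 1 of 10 genes against 9.99% of all genes (6.04% higher, 3.95% lower). MMP1 had means of 2055 ± 158 in PBS and 2122 ± 193 in FWatb (SD, n = 4 and 7), a log2 fold change of 0.05 with an interval of -0.13 to 0.22. PLAU had 58.0 ± 22.8 and 60.4 ± 16.5, or 0.04 with an interval of -0.40 to 0.48. A change of the size seen with FWctl lies outside both intervals.

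MMP15 read 222, 248, 227 and 216 in PBS and ran from 217 through a median of 291 to 380 in FWatb. Only FWatb replicate 6 fell inside the PBS range. The log2 fold change was 0.36 ± 0.10 (adjusted p = 0.0193), or 1.28-fold higher. The call was lost without PBS replicate 1 (0.33, adjusted p = 0.0721), PBS replicate 4 (0.33, 0.0745) or FWatb replicate 4 (0.27, 0.0779), with all 22 samples (0.35, 0.0519) and within the libraries rich in ribosomal DNA transcripts (0.32, 0.199). PLAUR ran from 33.6 through a median of 36.8 to 48.8 in FWatb, above all 4 PBS samples, yet its log2 fold change of 0.57 ± 0.22 did not pass (adjusted p = 0.0902).

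MMP14 was at -0.15 with an interval of -0.31 to 0.01, and TIMP2 at 0.04 with an interval of -0.16 to 0.24. The 7 FWatb samples of MMP7 held 5 reads together. For MMP10, MMP13 and TIMP1 the estimates were -0.44, -0.46 and -0.42 with adjusted p of 0.648, 0.663 and 0.627, and the intervals spanned about 1 log2 unit on either side.

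**Figure D3:**
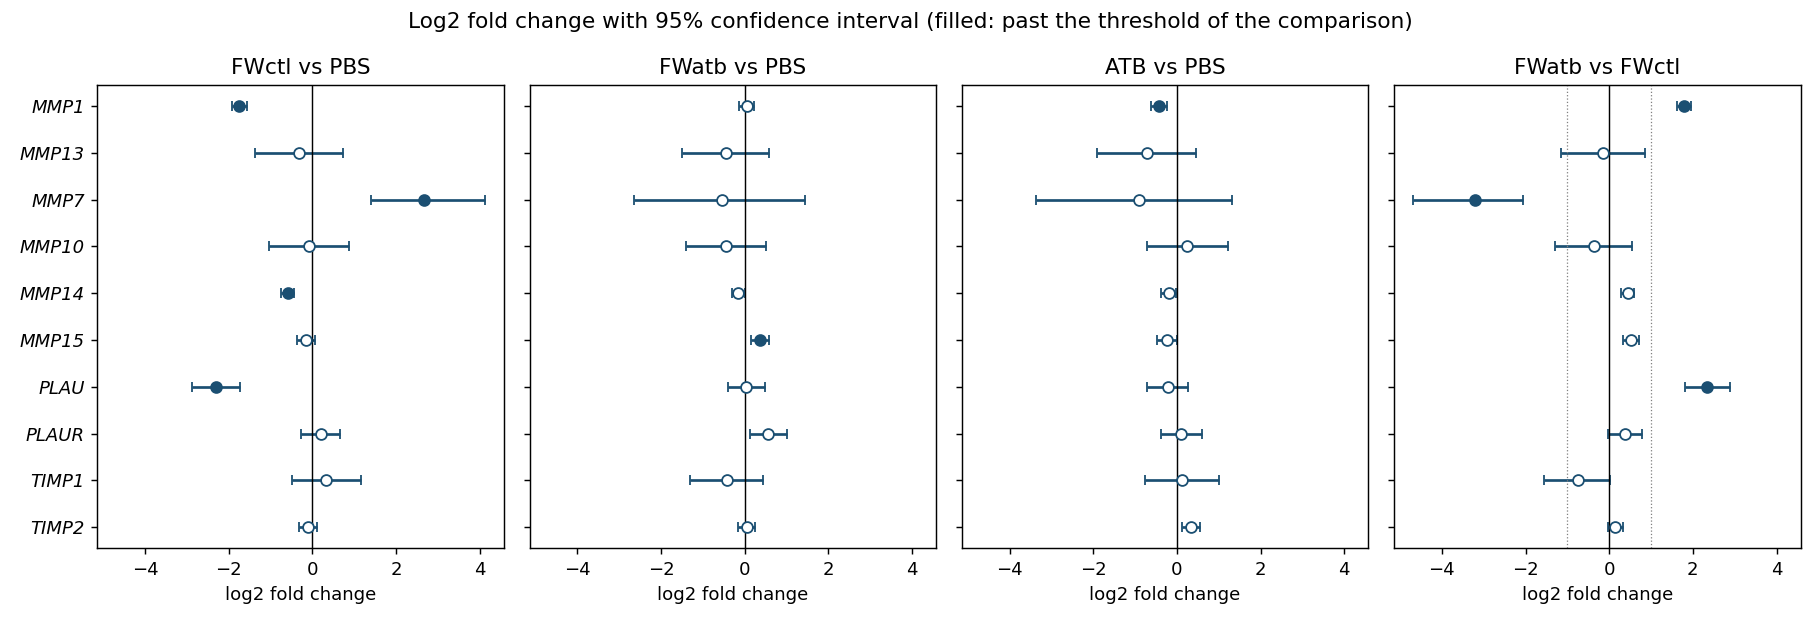
Log2 fold change with 95% confidence interval of the 10 genes in the 4 comparisons; filled points passed the threshold of that comparison, and dotted lines mark a log2 fold change of 1 in either direction for FWatb against FWctl. MMP1 and PLAU stand to the left of 0 in FWctl against PBS, near 0 in FWatb against PBS, and to the right of 1 in FWatb against FWctl.

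The antibiotics alone were compared with PBS as the control for drug carried in faecal water. MMP1 was the only gene of the set that passed (1 of 10 against 0.285% of all genes, 0.255% higher and 0.0295% lower). Its ATB samples read 1550, 1281, 1653 and 1568, all below the lowest PBS sample of 1826. The log2 fold change was -0.44 ± 0.10 (adjusted p = 0.0292), or 1.35-fold lower. This call was fragile. With each of 7 of the 8 PBS and ATB libraries left out in turn, the adjusted p was 0.0590 to 0.161, and only without PBS replicate 1 did it pass (adjusted p = 0.0363). The sizes remained between -0.51 and -0.38. TIMP2 read 365, 572, 402 and 480 in ATB against 339 to 384 in PBS, a log2 fold change of 0.34 ± 0.11 that did not pass (adjusted p = 0.220). MMP14 was narrowly spread in ATB, at 644 ± 6.98, and did not pass (-0.19, adjusted p = 0.545). MMP15 was at -0.24 (adjusted p = 0.620) and PLAU at -0.22 with an interval of -0.72 to 0.27. MMP7 had 3 reads over the 4 ATB libraries and 6 over the 4 PBS libraries.

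FWatb and FWctl were then set against each other, the comparison of the same mice with and without antibiotics. It shares its FWctl samples with the first comparison and its FWatb samples with the next, so its values follow in part from theirs. MMP1 and PLAU passed as higher with FWatb, 2 of the 10 genes, where 6.12% of all genes did. MMP7 passed as lower, where 6.6% of all genes did (12.7% in either direction), with the same limit of the filter as above. On the adjusted p alone 5 of the 10 passed, with MMP14 and MMP15 added and MMP7 included, where 48.8% of all genes did (23.4% higher, 25.4% lower).

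MMP1 ran from 1938 through a median of 2141 to 2434 in FWatb and was without overlap above FWctl, with a log2 fold change of 1.79 ± 0.08 (adjusted p = 1.38e-21), or 3.46-fold. PLAU ran from 39.6 through a median of 57.5 to 91.4, also without overlap, at 2.34 ± 0.26 (adjusted p = 5.53e-10), or 5.05-fold. WTAPP1, the antisense neighbour of MMP1, went the other way at -0.77 (adjusted p = 0.000367). MMP7 ran from 0 through a median of 1.19 to 1.97 in FWatb, below all FWctl samples, at -3.20 ± 0.65 (adjusted p = 3.09e-05). Its FWctl samples are those through which it met the filter.

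MMP14 ran from 577 through a median of 640 to 760 in FWatb, above all FWctl samples, at 0.44 ± 0.07 (adjusted p = 2.60e-06). MMP15 was at 0.52 ± 0.10 (adjusted p = 1.49e-05), with FWatb replicate 6 inside the FWctl range. Both were short of the fold threshold. PLAUR (0.37, adjusted p = 0.114), TIMP2 (0.15, 0.190) and TIMP1 (-0.75, 0.103) did not pass. MMP10 and MMP13 stood at -0.36 and -0.15 with adjusted p of 0.529 and 0.834.

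Between same-numbered FWctl and FWatb samples, MMP1, PLAU, MMP14 and MMP15 were higher with FWatb in 6 of 6 pairs and MMP7 was lower in 6 of 6. The share of all genes with 6 of 6 pairs in 1 direction was not computed. On the adjusted p alone, 48.8% of all genes passed in this comparison (23.4% higher, 25.4% lower), so such agreement does not set these genes apart. The log2 difference, with 1 added to each normalized count, was 1.51 to 2.08 for MMP1, 1.91 to 3.07 for PLAU, 0.21 to 0.65 for MMP14 and 0.36 to 0.78 for MMP15. For MMP7 it was -3.94 to -0.84, but MMP7 met the filter only through FWctl samples, so its direction in the pairs was partly set by the filter. PLAUR and TIMP2 were higher in 5 of 6 pairs, TIMP1 and MMP10 in 2 and MMP13 in 3. That a number marks 1 mouse is inferred from the shared numbering and the methods, since the labels do not state it.

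**Figure D4:**
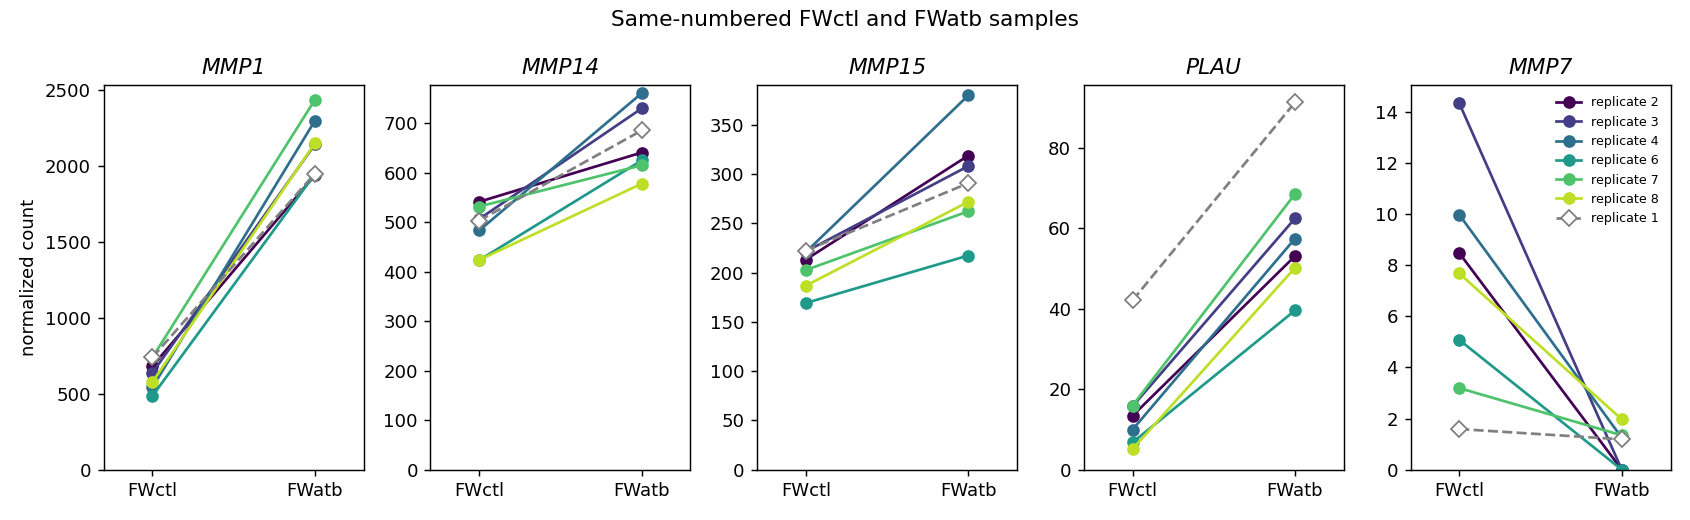
Normalized counts of 5 genes in FWctl and FWatb samples of the same replicate number, joined by lines; the dashed grey line with open diamonds is replicate 1, whose FWctl sample is outside the comparisons. All 6 coloured lines rise for MMP1, MMP14, MMP15 and PLAU and fall for MMP7. MMP7 met the filter only through FWctl samples, and the share of all genes with such agreement was not computed.

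The share of ribosomal DNA transcripts split the libraries unevenly over the conditions, and the values within the rich libraries (2 PBS, 4 FWctl, 7 FWatb, 1 ATB) were computed beside the pooled ones. For FWctl against PBS they were -1.77 for MMP1 (adjusted p = 3.34e-14), -2.30 for PLAU (4.14e-05) and -0.66 for MMP14 (3.18e-05). For FWatb against FWctl they were 1.88 for MMP1 (1.11e-17), 2.70 for PLAU (2.56e-08), 0.53 for MMP14 and 0.60 for MMP15. PLAU in FWatb against FWctl, which passed in both fits, went from 2.34 to 2.70. Among values that passed in neither fit, PLAU in FWatb against PBS went from 0.04 to 0.40. In that comparison MMP13 went from -0.46 to -0.74 and TIMP1 from -0.42 to -0.68. In FWctl against PBS MMP13 went from -0.31 to -0.63 and MMP15 from -0.16 to -0.29. MMP7 and MMP10 could not be tested there because they failed the filter. ATB had a single library of that kind, in which MMP1 read 1281 against a mean of 1590 in the other 3. With the library class as a term in the model, MMP1 in ATB against PBS was at -0.49 (adjusted p = 0.00661).

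Over the 21 samples, on the log2 scale, MMP1 correlated with PLAU at r = 0.92 and with MMP14 at 0.88, and PLAU with MMP14 at 0.90. MMP7 had negative values with these genes (-0.77, -0.71 and -0.68). The points share the 4 conditions, and all of these genes differed between FWctl and PBS, so the coefficients are a description of the condition pattern. For MMP7 that difference was partly set by the filter, which it met only through FWctl samples. Among 9312 other genes with a mean of at least 100 normalized counts, the patterns most like MMP1 were those of SPAG5 (r = 0.99) and CTNNAL1 (0.98). For PLAU they were FAM114A1 (0.95) and CYSTM1 (0.95), for MMP14 MXD3 (0.95) and NEURL1B (0.95), and for MMP15 AGRN (0.93) and SLC2A1 (0.91). For MMP7 they were MAU2 (0.91) and NABP2 (0.90). TIMP2 reached 0.82 with TEX2 and 0.81 with MARVELD3, and PLAUR 0.77 with COASY and 0.76 with MOGS. The scarce genes had weaker likenesses: TIMP1 with HID1 (0.71) and WDR13 (0.63), MMP13 with PDLIM1 (0.63) and DNM2 (0.62), and MMP10 with H3P6 (0.60) and MTIF3 (0.56).

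Of 17 other MMP genes, 7 met the filter. The gelatinases MMP2 and MMP9 did not: no library held more than 2 reads of MMP2 or 1 read of MMP9. In FWctl against PBS, 1 of the 7 was higher and 1 lower, where 24.3% of all genes were higher and 22.1% lower. The median log2 fold change of 0.83, against 0.02 over all genes, is that of MMP12, which did not pass (adjusted p = 0.220). MMP24, a membrane-type MMP, went from 35.3 ± 9.06 to 226 ± 71.2 normalized counts (log2 fold change 2.69, adjusted p = 1.45e-15). It shares 806 of 4376 exonic bases with the antisense gene MMP24OS, which had 1210 counts in all against 2037 for MMP24. MMP28, or epilysin, went from 16.1 ± 9.72 to 0.624 ± 0.983 (-4.20, adjusted p = 2.35e-07), with no raw count above 26 in the 21 libraries. Its highest FWctl value was 2.15, so MMP28 met the filter only through the other conditions. The difference was therefore partly set by the filter, and the call is given as a description. FWctl replicate 1, outside the comparisons, was at 10.3. In FWatb against FWctl MMP28 was higher (3.51), with the same limit of the filter. In that comparison 3 of the 7 were lower, with the largest falls in MMP24 (-2.24) and MMP12 (-1.28, adjusted p = 0.0392, at 5.90 and 2.30 normalized counts). Of all genes 6.12% were higher and 6.6% lower there. With edgeR, 0 of the 7 passed in FWatb against PBS (2 at an unadjusted p under 0.05) and 0 in ATB against PBS (1 at that level), and DESeq2 called 0 in both.

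All 4 other MMP inhibitors met the filter, and in FWctl against PBS 1 was higher and 2 lower (median -0.09), where 24.3% of all genes were higher and 22.1% lower. RECK, a membrane-anchored inhibitor, went from 76.8 ± 9.62 in PBS to 34.5 ± 11.8 in FWctl (-1.16, adjusted p = 3.35e-07) and was at 74.5 ± 9.33 in FWatb (1.12 against FWctl, adjusted p = 1.28e-07). TIMP3 was at 4684 ± 603 in PBS and 3826 ± 250 in FWctl (-0.29, adjusted p = 0.00225), and TIMP4 rose from 42.3 ± 15.1 to 65.2 ± 3.68 (0.64, adjusted p = 0.00186). TIMP4 shares 170 of its 1194 exonic bases with SYN2 on the opposite strand. The general protease inhibitor A2M passed in FWatb against PBS (-0.71, adjusted p = 0.0111), with 561 exonic bases shared with A2M-AS1.

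Of 14 other plasminogen system genes, 10 met the filter, and in FWctl against PBS 4 were higher and 3 lower (median 0.10), where 24.3% of all genes were higher and 22.1% lower. SERPINF2, the plasmin inhibitor, went from 830 ± 60.8 in PBS to 180 ± 31.1 in FWctl (-2.23, adjusted p = 3.83e-21) and 546 ± 81.0 in FWatb (-0.60 against PBS, adjusted p = 1.50e-05), where it was higher than in FWctl by 1.63 (adjusted p = 6.69e-18). KLK1 was also lower in FWctl (-2.30, adjusted p = 0.00180, at 9.93 and 1.98 counts). LRP1, an endocytic receptor that clears proteases from the cell surface, rose by 0.93 and the integrin chain ITGAV by 0.51. Against PBS the enolase ENO1, a cell-surface plasminogen receptor, rose by 0.65 with FWatb. In ATB against PBS edgeR called 0 of the 10 (1 at an unadjusted p under 0.05) and DESeq2 0.

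Among the 11 tested activators and sheddases, 3 were higher and 5 lower in FWctl against PBS (median -0.17), where 24.3% of all genes were higher and 22.1% lower. ADAM19, a membrane sheddase, fell most, from 96.8 ± 12.9 to 36.4 ± 6.12 (-1.39, adjusted p = 1.17e-09), and was higher in FWatb than in FWctl (1.52). ST14, or matriptase, an epithelial protease that can activate pro-urokinase, fell by 0.62 (adjusted p = 6.77e-09). CD44, a hyaluronan receptor that docks MMPs, rose by 0.60 with FWctl and 0.57 with FWatb against PBS, and ADAMTS9 by 0.77 with FWctl. With FWatb against PBS, ADAM15 rose by 0.31 (adjusted p = 0.0119) and HPN, or hepsin, fell by 0.37 (adjusted p = 0.00167), with 349 of its 3383 exonic bases shared with HPN-AS1.

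Of 25 matrix genes, 24 met the filter, and in FWctl against PBS 5 were higher and 11 lower (median -0.30), against 24.3% and 22.1% of all genes. LAMA1, a laminin chain of basement membranes, read 753, 724, 726 and 694 in PBS and 40.9 to 79.8 in FWctl (-3.57, adjusted p = 1.36e-28). COL18A1, a basement membrane collagen, fell by 1.44 (adjusted p = 7.02e-17) but shares 1563 exonic bases with SLC19A1 on the other strand. COL4A2, a chain of type IV collagen, rose by 1.42, and FN1, or fibronectin, went from 37566 ± 1226 to 80653 ± 5502 (1.10, adjusted p = 1.86e-12). With FWatb against PBS, 1 was higher (HSPG2, 0.40, adjusted p = 0.0437) and 2 were lower (LAMB2, -0.27, and LAMA3, -0.25), against 6.04% and 3.95% of all genes. Against FWctl, 4 were higher and 1 lower with FWatb, led by LAMA1 (3.49), COL17A1 (1.27) and COL4A2 (-1.56), where 6.12% of all genes were higher and 6.6% lower. The direction of the listed matrix genes was thus mixed.

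All 13 AP-1 and ETS factors met the filter, and 5 were higher and 4 lower in FWctl against PBS (median 0.13), where 24.3% of all genes were higher and 22.1% lower. JUN went from 75.0 ± 16.8 to 252 ± 78.7 (1.77, adjusted p = 1.49e-11) and ATF3 from 50.3 ± 3.84 to 174 ± 33.6 (1.79, adjusted p = 1.59e-13). FOS went from 56.1 ± 10.5 to 26.3 ± 7.35 (-1.16, adjusted p = 1.15e-06) and ETV4, also called PEA3, from 1058 ± 126 to 503 ± 74.9 (-1.07, adjusted p = 2.51e-12). The partners JUN and FOS moved in opposite directions. With ATB both were higher than in PBS, JUN by 1.40 (adjusted p = 9.92e-06) and FOS by 1.26 (adjusted p = 5.93e-06), the only 2 of the list to pass there, where 0.285% of all genes did. With FWatb against PBS, FOS (0.54) and ETV5 (0.71) were among 3 higher, where 6.04% of all genes were higher. Against FWctl, FOS (1.71) and FOSL1 (1.18, adjusted p = 0.0181, at 4.04 and 9.79 counts) were higher, and ATF3 (-1.90) and JUN (-1.79) lower.

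**Figure D5:**
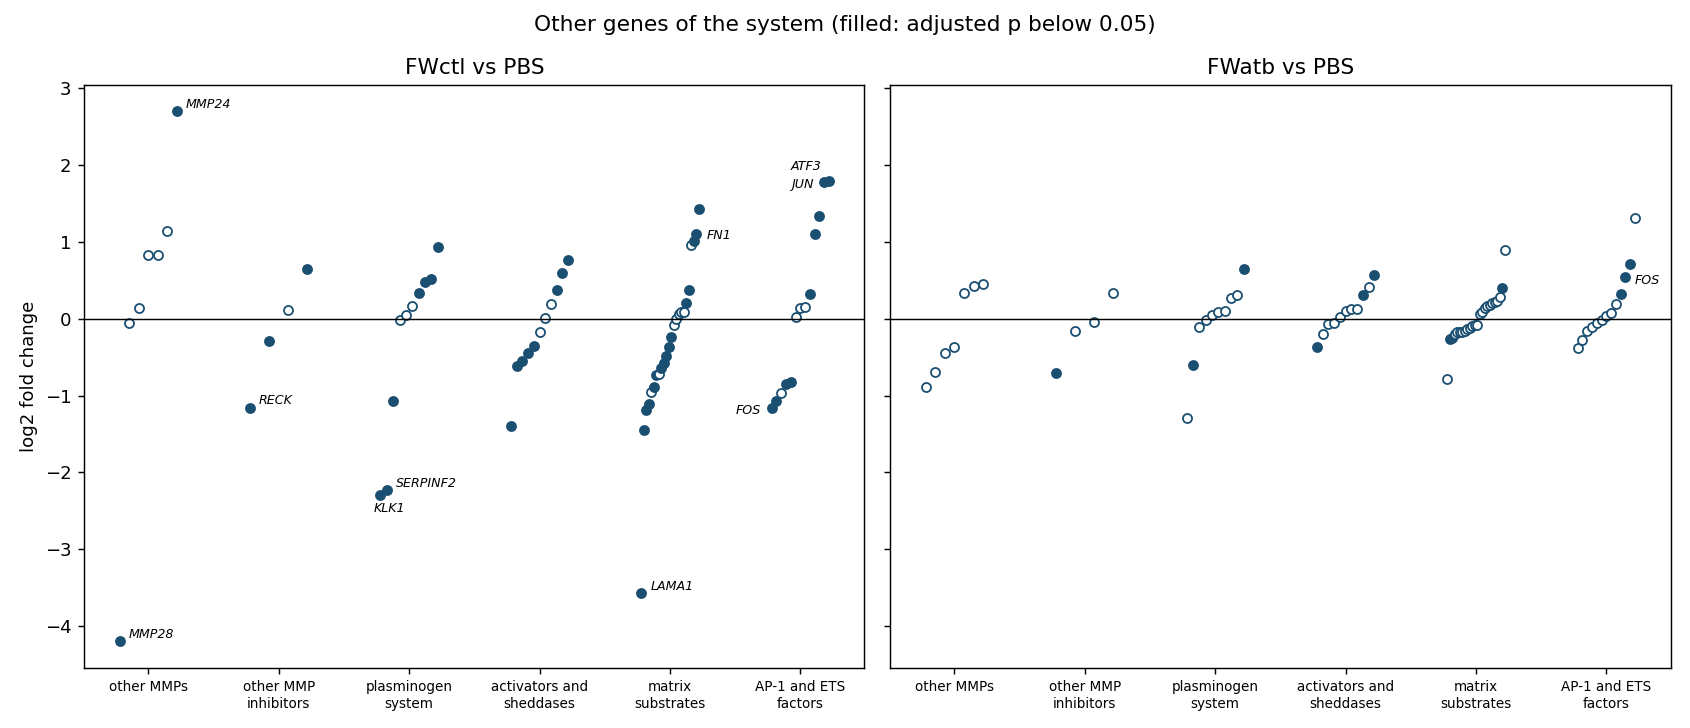
Log2 fold change of the tested genes of each list, without the members and the cell type markers, against PBS, for FWctl (left) and FWatb (right); each point is a gene, filled where the adjusted p was below 0.05, and some genes are named. MMP24 and MMP28 lie at the extremes in FWctl, while all filled points of the FWatb panel lie between -0.71 and 0.71. MMP28 met the filter only through conditions other than FWctl.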

How the data were processed

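RNA of Caco-2 cells was prepared by the authors with a stranded total RNA kit after ribosomal RNA removal. Per the labels and the methods, reads were trimmed (Trimmomatic 0.38), aligned to GRCh38 (HISAT2 2.1.0) and counted per gene of Ensembl release 105 (featureCounts, Subread 2.0.0). The deposited values are the authors' raw counts, neither normalized nor filtered. The strand option used in counting is not given in the sources used here. Depth was 7118302 to 18726967 counts per library.

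Gene identifiers were matched to GENCODE release 44 (61369 of 61487 found, 42045 with a symbol). Conditions and replicate numbers came from the labels. The 10 genes and the lists of other genes were chosen with earlier results of these data known. The text names all 10 genes, the 2 genes most alike to each, and from each list the passing genes with the 2 largest rises and falls per comparison, with TIMP3, MMP9 and MMP2 always; a gene of the plasminogen list is not reported here.

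Counts were analysed with edgeR 4.0.16 (R 4.3.3): TMM scaling, a model of 4 conditions on 21 samples, the quasi-likelihood F test, the filter of a count above 5 in at least 3 samples, and Benjamini-Hochberg adjustment. Standard errors are the log2 fold change over the root of F. The test was run on counts simulated for FWatb against FWctl over 19639 genes, of which 200 were changed, and it recovered 183 with 9 false calls. The simulation gave every gene the same spread, changed no gene as scarce as MMP7 and called on the adjusted p alone. Its recovery therefore does not carry over to scarce genes, to genes with a wider spread or to the added fold requirement. Alternatives were DESeq2 1.42.0, other scalings and filters, all 22 samples, a replicate block, a term for the ribosomal DNA class, and leaving out each library. All 54 replicate pairs differed by more than counting error (chi-square over its degrees of freedom 3.95 or more). The samples are separate cultures only as far as the labels tell, so p-values measure the spread between these samples.

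Same-numbered FWctl and FWatb samples were checked for pairing over 9365 genes: their deviations correlated at 0.19 on average (lowest -0.04), against -0.04 for other pairs, and 4 of 6 correlated best with their own number. Start-site sequences are those of RefSeq for GRCh38.p14. Figures used matplotlib 3.10.9.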

Additional observations from a re-analysis of the deposited data

Results flagged for a closer look

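Each gene was screened in each condition for a highest or lowest sample far from the others, and 3 of 40 such groups had one, where chance gives about 5%. PLAU in PBS replicate 1 was at 23.9 normalized counts (24 reads), while the other 3 PBS samples were at 67.0 to 71.2. TIMP1 in FWctl replicate 4 was at 19.9 normalized counts (14 reads), while the other 5 were at 3.38 to 9.18. TIMP2 in FWatb replicate 4 was at 463 normalized counts (370 reads), while the other 6 were at 336 to 367. FWatb replicate 4 was also the highest FWatb sample of MMP14, MMP15 and PLAUR.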

How the results depend on the processing

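The log2 fold changes of MMP1 and PLAU in FWctl against PBS and in FWatb against FWctl, and the fall of MMP14 in FWctl, kept their direction in every alternative run, and only the added fold requirement removed a call, that of MMP14 in FWctl. In the same comparisons MMP7 also kept its direction but was not testable under the stricter filter or within the libraries rich in ribosomal DNA transcripts. Since MMP7 met the main filter only through FWctl samples, its direction was partly set by that filter, and keeping it is no separate support. Over all 4 comparisons, 822 of 842 single-gene values stayed on their side of the threshold, 16 lost a call and 4 gained one. DESeq2 gave no adjusted p for MMP7, MMP10, MMP13 and TIMP1 in FWatb against PBS and in ATB against PBS. In ATB against PBS it gave none for PLAU and PLAUR either. These values were counted as not passing, and so among the 822, although they were not tested there. Of the 822, 808 kept their sign and 14 changed it, none of which passed in either fit. MMP7 in FWatb against PBS, at -0.54, reached 1.10 without PBS replicate 4 and 0.07 with the library class as a term. MMP7 in ATB against PBS reached 0.74 without PBS replicate 4, and MMP13 in FWctl against PBS 0.03 without PBS replicate 2.

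The number of genes called moved as follows. With all 22 samples, FWatb against PBS gave 1227 genes (0 of the 10) in place of 2035 (1 of the 10), and ATB against PBS gave 5 (0 of the 10) in place of 58 (1 of the 10). Within the ribosomal-DNA-rich libraries FWatb against PBS gave 1127 genes (0 of the 10). For ATB against PBS, DESeq2 gave 208 genes, library size alone 14 and no filter on low counts 111. Library size alone added PLAUR in FWatb against PBS (2 of the 10, log2 fold change 0.64, adjusted p = 0.0470) and moved the split from 1231 higher and 804 lower to 2090 higher and 411 lower. With a log2 fold change above 1 also required, FWctl against PBS gave 2681 genes, FWatb against PBS 115 (0 of the 10) and ATB against PBS 7 (0 of the 10). Without that requirement FWatb against FWctl gave 9942 genes and 5 of the 10. With the replicate number as a block over all 4 groups, ATB against PBS gave 203 genes, and PLAUR passed in FWatb against PBS (0.69, adjusted p = 0.0282, 2 of the 10), although numbers have no stated link between PBS and the other groups. The block changed no other call of the 10 genes, and within the FW pairs alone it gave 2326 genes against 2590. The cause of these moves was not tested.

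With each library left out in turn, the genes called were 8716 to 9365 in FWctl against PBS, 1334 to 2589 in FWatb against PBS, 7 to 93 in ATB against PBS and 2435 to 2644 in FWatb against FWctl. The lowest FWatb count came without PBS replicate 2. The ATB count stayed within 1.5 times of 58 only without PBS replicate 4 (52). Of the 10 genes, 4, 0 to 1, 0 to 1 and 3 passed. Low counts limited MMP7, MMP10, MMP13 and TIMP1.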

Other observations

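Markers of cell type moved in both directions with FWctl against PBS, where 24.3% of all genes were higher and 22.1% lower (46.4% in either direction). Of 11 tested epithelial markers 3 were higher, led by KRT8 (0.43) and CDH17 (0.40), and 3 lower, led by KRT20 (-2.74) and LGALS4 (-0.99). KRT8 and KRT18 share 525 exonic bases on opposite strands. Of 5 tested fibroblast markers LUM was higher (0.50) and 3 were lower, led by COL1A1 (-2.86) and PDGFRA (-2.63). Of 4 tested immune markers ITGAM (3.72, from 0.665 to 9.95 normalized counts) and CSF1R (0.96) were higher, and of 2 tested endothelial markers VWF was higher (mean 43.1 against 10.8 normalized counts) and PECAM1 lower (30.0 against 62.6). No library held more than 17 reads of ITGAM. Its mean was highest in FWctl, so its place among the tested genes may rest on FWctl samples. In FWatb against FWctl KRT20 (3.22), PDGFRA (2.90), COL1A1 (2.74) and PECAM1 (1.16) were higher and VWF (-1.67) and ITGAM (-1.63) lower. Of all genes 6.12% were higher and 6.6% lower there. In FWatb against PBS KRT18 (0.61) and KRT8 (0.48) were higher and PDGFRB (-0.72) lower, where 6.04% of all genes were higher and 3.95% lower. In ATB against PBS edgeR and DESeq2 called 0 of the tested markers, with 2 epithelial and 1 endothelial marker at an unadjusted p under 0.05 in edgeR.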
